A study of Homo sapiens with 6 samples.

Results

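Immediate early genes and the feedback inhibitors of the MAP kinase pathway were followed in Ker-CT keratinocytes depleted of KMT2C. The 37 genes were taken by name from 58302 entries of a deposited gene count table, and they comprise 7 AP-1 subunits, 16 other early factors, 9 dual-specificity phosphatases (DUSPs) and 5 SPRY/SPRED proteins. All 37 had an entry in the table. A filter on low counts left 35 of them among 15063 genes tested, and EGR2 and KLF2 were not tested. EGR2, an early zinc finger factor, had 0 counts in the 3 siKMT2C libraries together and 2 in the 3 siNC libraries. KLF2, a Krüppel-like factor, had 9 and 10 counts in siKMT2C and siNC.

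Ker-CT cells are human skin keratinocytes that divide without limit because telomerase and CDK4 were introduced into them. The tested group received siRNA against KMT2C, a histone H3 lysine 4 methyltransferase (siKMT2C, 3 libraries), and its control received a negative-control siRNA (siNC, 3 libraries). Both groups then spent 24 h with M5, 5 recombinant cytokines each at 10 ng/ml (IL-22, oncostatin M, IL-17A, TNF-α and IL-1α), which serves as a culture model of psoriasis. No library without the cytokines was analysed here, so the response of these genes to M5 itself was not measured, and with a single harvest time neither was their time course. The labels do not say whether libraries of a group came from separate cultures, so p-values measure only the spread between these libraries.

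Immediate early genes are transcribed within minutes of a stimulus without new protein synthesis, chiefly through serum response factor, its ETS-family partners and CREB at their promoters. Many of the products are transcription factors. FOS and JUN proteins pair to form AP-1, which in keratinocytes controls proliferation, differentiation and inflammatory genes. The pathway limits itself by inducing its own inhibitors. DUSPs remove the activating phosphates from ERK, JNK or p38, and SPRY and SPRED proteins act upstream, between the receptors, RAS and RAF.

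The libraries held 14409277 to 17539519 counts. KMT2C was at 32.0, 30.8 and 27.3 CPM (counts scaled to library size) in siKMT2C and at 87.9, 82.0 and 72.6 CPM in siNC, a fall to 37.1% of the control level (log2 fold change -1.43, SE 0.14, n = 3 per group, edgeR adjusted p = 0.00786). Its edgeR adjusted p was 0.0634, 0.0507 and 0.0593 without the first or the second siKMT2C library or the second siNC library, so the call was lost there. Its groups did not overlap, and an exact permutation test (two-sided) can reach no p below the 0.1 it returned with 3 libraries a group. Keratinocyte markers were present, with all 12 of the listed genes at a mean of 10 CPM or more. The endothelial list (4 genes) summed to 0.208 CPM or less in every library. The leukocyte list (6 genes, PTPRC and CD3E at 0) summed to 13.0 to 14.6 CPM in siKMT2C and 9.78 to 14.5 CPM in siNC, mostly as CD68. The melanocyte list (6 genes, TYR and DCT at 0) summed to 6.97 to 8.93 CPM in siKMT2C and 7.96 to 15.7 CPM in siNC, mostly as MITF. The fibroblast list (7 genes, none at 0 in every library) summed to 13.5 to 17.5 CPM in siKMT2C and 20.7 to 31.1 CPM in siNC, mostly as COL1A1. The part of these markers in the results was not tested. The third library of siNC stood apart, being the highest of all 6 libraries in 26.8% of tested genes. Its GC content, weighted by counts over the longest transcript of each gene, was 49.8%, that of the third library of siKMT2C 49.0%, and those of the other libraries 47.8% to 48.4%.

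None of the 35 tested early response genes passed the edgeR quasi-likelihood test at a Benjamini-Hochberg adjusted p under 0.05, a threshold that 1.5% of all tested genes passed. At an unadjusted p under 0.05 there were 12 (34.3%), of which 8 were lower and 4 higher in siKMT2C. The same held for 16.9% of all tested genes, 9.01% being lower and 7.91% higher. DESeq2 called 7 of the 35 (5.79% of all genes given an adjusted p), namely FOSL2, PHLDA1, DUSP4, DUSP6, DUSP7 and DUSP8 as lower and DUSP5 as higher, and limma-voom called 0 (1.42% of all genes). The groups did not overlap in 18 of the 35 (51.4%), against 24.1% of all tested genes. The median log2 fold change was -0.20 over the 35 genes and -0.00 over all genes tested, with 23 of the 35 negative, against 50.3% of all genes. These genes and the pathway lists below were chosen with earlier results of these data known, so such shares and medians are descriptions only. In bulk RNA, less transcript per cell and fewer cells expressing a gene cannot be told apart.

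**Figure D1:**
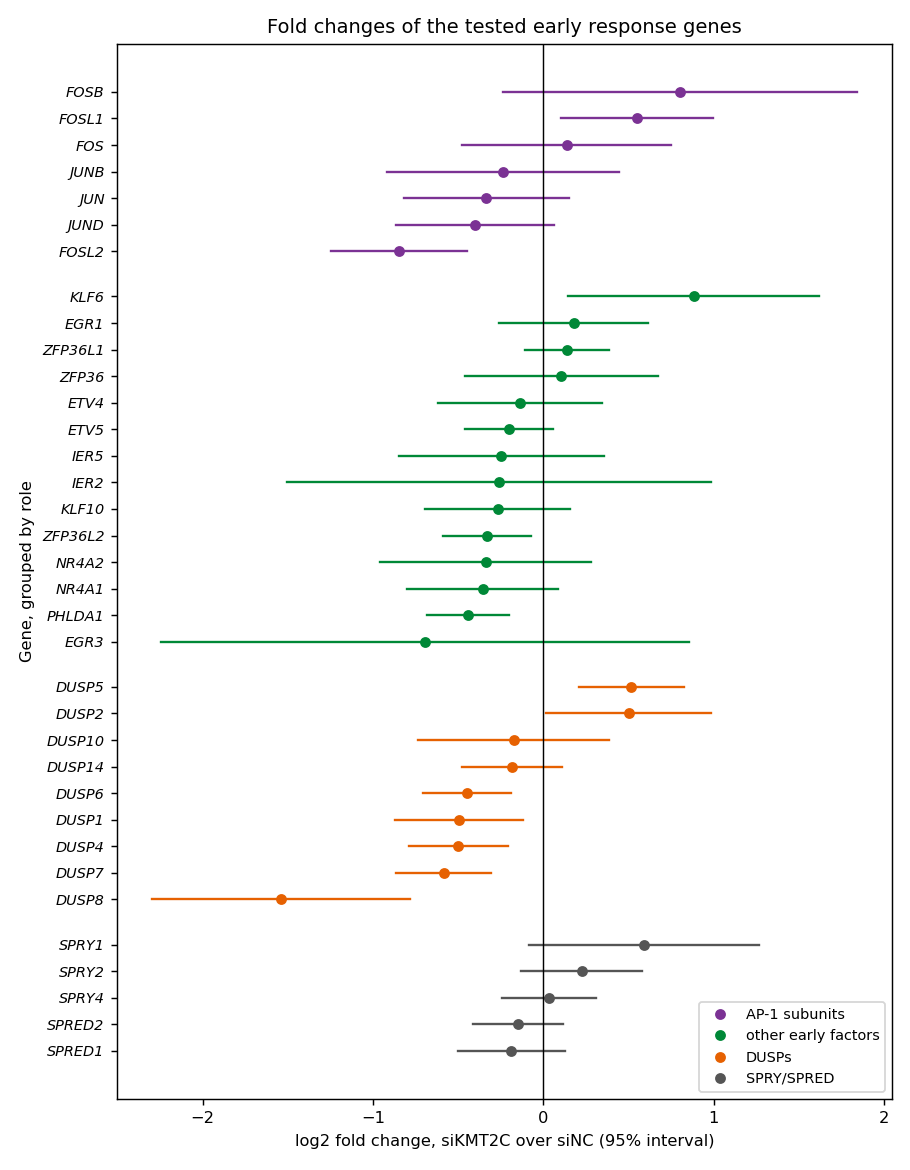
Log2 fold change of each tested gene in siKMT2C over siNC with its 95% interval from the edgeR fit, for 35 genes grouped by role and sorted within each role. Intervals lie wholly below 0 for 8 genes, 5 of them DUSPs, and wholly above 0 for FOSL1, KLF6, DUSP5 and DUSP2.

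Promoters are shown for 5 genes, each holding at least 1 match to the elements named below. FOSL2, DUSP1 and DUSP8 were lower in siKMT2C at an unadjusted p under 0.05. JUNB and EGR1 were not called, and their groups overlapped. Only 11 of the 28 genes with a promoter window hold any match, so the 5 do not stand for the rest. Each runs 5′ to 3′ on the gene's strand from 250 bases before the RefSeq start to 50 after it (GRCh38.p14). Capitals mark exact matches to the cyclic AMP response element TGACGTCA, to the AP-1 site TGANTCA and to the CArG box, the core of the serum response element, all palindromic and so searched on both strands, and to the TATA element TATAAA, searched on the gene's strand only.
FOSL2, chr2:28392608-28392907, plus strand: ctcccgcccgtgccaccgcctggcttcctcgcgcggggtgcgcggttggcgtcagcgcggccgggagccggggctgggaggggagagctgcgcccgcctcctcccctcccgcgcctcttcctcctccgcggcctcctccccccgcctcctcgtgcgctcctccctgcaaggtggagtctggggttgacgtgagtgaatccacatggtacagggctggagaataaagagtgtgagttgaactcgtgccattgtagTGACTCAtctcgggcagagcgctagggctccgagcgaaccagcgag
JUNB, chr19:12791236-12791535, plus strand: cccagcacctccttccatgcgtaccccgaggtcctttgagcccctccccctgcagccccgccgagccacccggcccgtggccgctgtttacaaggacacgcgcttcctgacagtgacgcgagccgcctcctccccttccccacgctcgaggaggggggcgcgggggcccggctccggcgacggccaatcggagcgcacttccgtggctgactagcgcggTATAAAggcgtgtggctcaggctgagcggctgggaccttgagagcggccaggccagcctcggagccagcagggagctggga
EGR1, chr5:138465229-138465528, plus strand: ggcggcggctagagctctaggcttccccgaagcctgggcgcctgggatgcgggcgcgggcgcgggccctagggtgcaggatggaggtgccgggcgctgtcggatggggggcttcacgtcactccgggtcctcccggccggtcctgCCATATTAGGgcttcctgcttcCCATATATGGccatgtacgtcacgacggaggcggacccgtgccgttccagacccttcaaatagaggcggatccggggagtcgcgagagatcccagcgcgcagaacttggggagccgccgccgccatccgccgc
DUSP1, chr5:172771146-172771445, minus strand: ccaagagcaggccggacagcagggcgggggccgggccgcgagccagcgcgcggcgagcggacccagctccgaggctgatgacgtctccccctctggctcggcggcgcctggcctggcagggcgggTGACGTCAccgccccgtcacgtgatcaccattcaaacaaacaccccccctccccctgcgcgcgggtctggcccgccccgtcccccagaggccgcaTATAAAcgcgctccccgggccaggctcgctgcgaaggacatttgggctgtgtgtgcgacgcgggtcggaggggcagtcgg
DUSP8, chr11:1572222-1572521, minus strand: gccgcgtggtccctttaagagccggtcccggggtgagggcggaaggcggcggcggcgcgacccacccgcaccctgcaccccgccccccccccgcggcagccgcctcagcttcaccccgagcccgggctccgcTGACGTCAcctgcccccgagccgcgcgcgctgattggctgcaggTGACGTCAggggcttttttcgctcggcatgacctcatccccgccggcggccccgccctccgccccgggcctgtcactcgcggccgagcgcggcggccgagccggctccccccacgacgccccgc

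DUSP8 holds 2 copies of TGACGTCA, DUSP1 1, EGR1 2 CArG boxes, and FOSL2 an AP-1 match 4 bases after its start. RefSeq promoter windows were matched for 28 of the 37 genes. The others were not searched, so absence of a gene from the lists that follow need not mean absence of a match. Of these 28, 4 hold TGACGTCA (DUSP1, DUSP8, JUND and ZFP36L1), 2 hold TGANTCA (FOSL2 and SPRED2), 2 hold a CArG box (EGR1 and EGR2) and 5 hold TATAAA (FOS, FOSB, JUNB, DUSP1 and SPRED2). Over all 35116 RefSeq promoter windows of the same length the shares are 1.85% for TGACGTCA, 7.71% for TGANTCA, 1.29% for the CArG box and 7.33% for TATAAA. The units differ, since these shares count single windows. The 28 genes have 37 windows together, and a gene was counted if any of its windows matched.

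Among the AP-1 subunits, the FOS-like pair FOSL1 and FOSL2 stood at opposite sides of 0. FOSL2 (FRA2, chromosome 2, 28392448 to 28417312, plus strand) was at 78.6, 70.8 and 86.5 CPM in siKMT2C, against 118, 132 and 174 CPM in siNC. All 3 siKMT2C values lie below the lowest siNC value, and the log2 fold change was -0.85 (SE 0.17, 95% interval -1.25 to -0.45, edgeR adjusted p = 0.0613). FOSL1 (FRA1, chromosome 11, 65892049 to 65900573, minus strand) was at 95.6, 81.8 and 101 CPM in siKMT2C, against 47.4, 66.2 and 76.5 CPM in siNC. Every siKMT2C library was above every siNC library, by less than 6 CPM at the nearest values. Its log2 fold change was 0.55 (SE 0.19, edgeR adjusted p = 0.2). Counts of FOSL1 divided by those of FOSL2 in the same library gave 1.22, 1.16 and 1.17 in siKMT2C, against 0.400, 0.502 and 0.44 in siNC. This ratio is a description, since its separation followed from the opposite directions of the 2 genes.

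**Figure D2:**
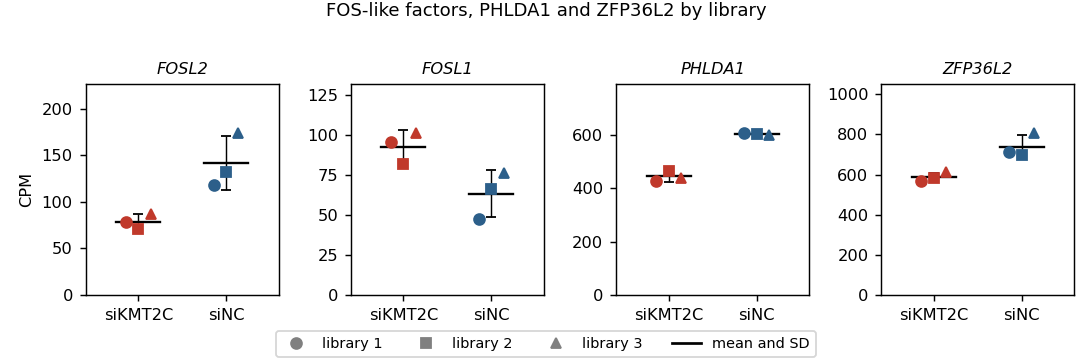
CPM of FOSL2, FOSL1, PHLDA1 and ZFP36L2 in each library, siKMT2C at the left and siNC at the right of each panel, with the mean and SD of 3 libraries (y axes start at 0). FOSL2, PHLDA1 and ZFP36L2 are lower and FOSL1 is higher in every siKMT2C library than in any siNC library.

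The FOSL2 call depended on the setting. Its edgeR adjusted p was 0.0351 without the third siNC library, 0.0274 without the filter on low counts and 0.00711 after correction for transcript GC content and length, while leaving out any other single library gave 0.0841 to 0.248. FOSL1 passed after the GC and length correction (adjusted p = 0.0172) and in none of the fits that left out a library.

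The JUN proteins, the obligate partners of FOS proteins in AP-1, were not called. JUN was at 142, 133 and 174 CPM in siKMT2C and at 152, 164 and 249.7 CPM in siNC (log2 fold change -0.33, SE 0.21, edgeR adjusted p = 0.473). JUNB was at 142, 137 and 218 CPM in siKMT2C and at 149.9, 150.1 and 286 CPM in siNC (log2 fold change -0.24, 95% interval -0.91 to 0.44, edgeR adjusted p = 0.746). JUND, the subunit least dependent on stimulation, was at 73.1, 58.9 and 67.5 CPM in siKMT2C and at 74.3, 74.2 and 115 CPM in siNC (log2 fold change -0.40, edgeR adjusted p = 0.365), and its siKMT2C libraries all lay below the siNC libraries, while JUN and JUNB overlapped. For all 3 genes the third siNC library was the highest of the 6, and JUNB overlaps HOOK2 on the opposite strand, whose reads may have been mixed with its own since strand information was not given.

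FOS, the prototype early gene, was low, at 8.81, 12.2 and 13.6 CPM in siKMT2C and 7.09, 11.8 and 12.6 CPM in siNC. Its log2 fold change of 0.14 had a 95% interval from -0.47 to 0.75 (edgeR adjusted p = 0.848), which does not exclude a change of up to 1.69-fold upward. FOSB had 23, 13 and 38 counts in siKMT2C and 10, 16 and 17 in siNC (log2 fold change 0.80, SE 0.45, edgeR adjusted p = 0.421). It overlaps ERCC1 on the opposite strand, which had 14852 counts over the 6 libraries against 117 for FOSB, and its level is uncertain.

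Levels of different genes were compared as CPM per kilobase of merged exons. The deposited FPKM values were not used for this, because they divide by a length that is 1.0 to 2.93 times the merged exon length among these genes (median 1.53 over 12796 genes) and so place genes with many annotated transcripts too low. Merged exons also join all annotated transcripts of a gene, so the order of genes depends on that choice of length as well. On the per-kilobase scale JUNB led the AP-1 subunits in every library, with 91.1 ± 24.9 in siKMT2C and 107 ± 43.0 in siNC (SD, n = 3). In siKMT2C it was followed by FOSL1 at 49.3 ± 5.36, JUN at 42.3 ± 6.02 and JUND at 35.7 ± 3.83, and in siNC by JUN at 53.3 ± 15.0, JUND at 47.1 ± 12.6 and FOSL1 at 33.6 ± 7.80. Each order was the same in all 3 libraries of its group. The lower neighbours (FOSL1, JUN and JUND in siKMT2C, and JUN, JUND and FOSL1 in siNC) differed in mean by less than their SDs added. FOSL2 stood lower, at 11.0 ± 1.10 in siKMT2C and 19.8 ± 4.04 in siNC, then FOS at 3.57 ± 0.766 and 3.24 ± 0.918 and FOSB below 0.5 in every library.

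As shares of the summed AP-1 level, FOSL1 made up 22.8%, 21.5% and 19.5% in siKMT2C, against 12.0%, 15.5% and 11.3% in siNC. FOSL2 made up 4.95%, 4.90% and 4.39% in siKMT2C, against 7.91%, 8.16% and 6.79% in siNC. The JUN share also did not overlap between groups, at 18.1%, 18.6% and 17.8% in siKMT2C and 20.6%, 20.5% and 19.7% in siNC. Shares of a common total depend on each other, and in CPM the JUN groups overlapped. The 3 JUN proteins together held 70.9% to 74.4% in siKMT2C and 74.6% to 80.8% in siNC. These shares are descriptions with no test, since they were built from genes whose differences were already known.

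**Figure D3:**
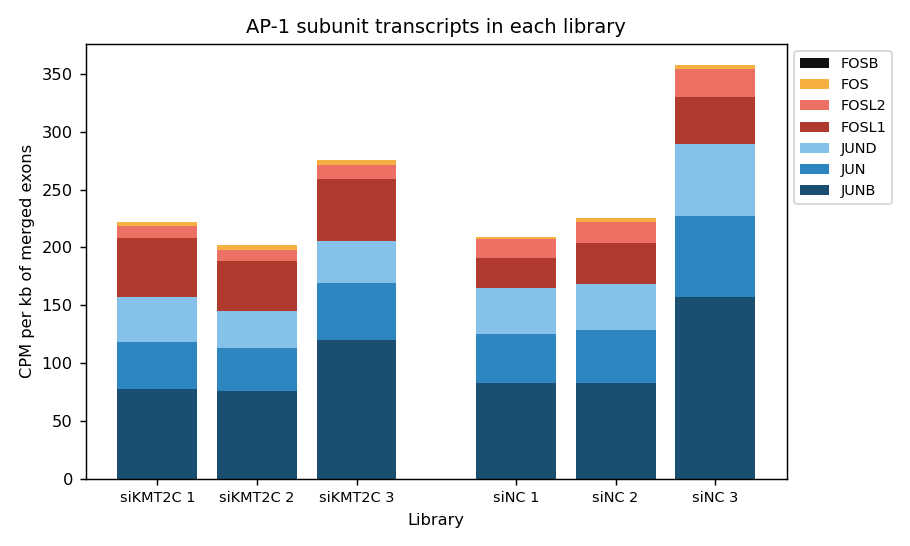
Stacked level of the 7 AP-1 subunits in each library, in CPM per kilobase of merged exons, siKMT2C libraries at the left and siNC libraries at the right. The FOSL1 segment is wider and the FOSL2 segment narrower in siKMT2C, and the third library has the tallest stack of each group, at 276 in siKMT2C and 358 in siNC.

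Of the 14 other early factors tested, 3 (21.4%, against 16.9% of all tested genes) had an unadjusted p under 0.05, 2 of them lower and 1 higher in siKMT2C. PHLDA1, a pleckstrin-homology-like protein induced by growth factors (chromosome 12, 76025447 to 76033932, minus strand), was at 428, 466 and 439 CPM in siKMT2C, against 607, 604 and 599 CPM in siNC. The siNC values lay within 8 CPM of each other and well above the siKMT2C values, with a log2 fold change of -0.44 (SE 0.10, edgeR adjusted p = 0.0834). ZFP36L2, one of the zinc finger proteins that bind AU-rich elements and promote decay of early gene and cytokine mRNAs, was at 569, 582 and 612 CPM in siKMT2C, against 712, 699.5 and 807 CPM in siNC (log2 fold change -0.33, SE 0.11, edgeR adjusted p = 0.189). Its relatives had log2 fold changes nearer to 0. ZFP36L1 was at 923, 933 and 902 CPM in siKMT2C and 775, 873 and 856 CPM in siNC (log2 fold change 0.14, SE 0.11, edgeR adjusted p = 0.566), and ZFP36 at 64.8, 50.2 and 74.8 CPM in siKMT2C and 40.5, 60.5 and 75.3 CPM in siNC (log2 fold change 0.11, SE 0.25, edgeR adjusted p = 0.876). ZFP36L2 and ZFP36L1 were the highest of all 37 genes per kilobase, at 159 ± 5.98 and 178 ± 3.07 CPM per kilobase in siKMT2C and 200.1 ± 15.9 and 162 ± 10.2 in siNC (SD, n = 3).

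KLF6, a Krüppel-like factor, was at 199, 195 and 80.8 CPM in siKMT2C and 73.1, 90.1 and 94.5 CPM in siNC. The first and second siKMT2C libraries were above all siNC libraries, and the third lay among them (log2 fold change 0.88, SE 0.32, edgeR adjusted p = 0.214). Without that library the log2 fold change was 1.2 (edgeR adjusted p = 0.0524). Without the third library of both groups, a setting chosen after seeing the data, it was 1.27 (edgeR adjusted p = 0.00796), and 5 of the 34 early response genes tested there were called, against 4.29% of all tested genes.

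EGR1, a zinc finger factor and one of the most strongly induced early genes in many cell types, was at 238, 239 and 276 CPM in siKMT2C and 167, 221 and 278 CPM in siNC. The groups overlapped, and the 95% interval of its log2 fold change of 0.18 ran from -0.26 to 0.61 (edgeR adjusted p = 0.693). EGR3 had 3 to 18 counts a library and was not separated. The ETS factors ETV4 and ETV5, whose transcription follows ERK activity, had log2 fold changes of -0.14 (SE 0.21) and -0.20 (SE 0.11). ETV5 was at 78.0, 76.8 and 76.5 CPM in siKMT2C, against 89.3, 88.2 and 88.8 CPM in siNC, a small difference with very little spread that was not called (edgeR adjusted p = 0.411). ETV4 overlaps DHX8 on the opposite strand, so its level is uncertain.

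The orphan nuclear receptors NR4A1 and NR4A2 were low, at 4.52 ± 0.147 and 1.39 ± 0.184 CPM in siKMT2C and 5.79 ± 0.811 and 1.76 ± 0.203 CPM in siNC (SD, n = 3). Neither was called, and the NR4A1 libraries did not overlap between groups. KLF10, a TGF-β-inducible Krüppel-like factor, had a log2 fold change of -0.27 (SE 0.18), and the early response proteins IER2 and IER5 of -0.26 (SE 0.54) and -0.25 (SE 0.26), none of them called.

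The DUSPs were the group with the most genes at an unadjusted p under 0.05, 7 of 9 (77.8%, against 16.9% of all tested genes), with 5 lower and 2 higher in siKMT2C and a median log2 fold change of -0.45. None was called over all genes. Because the genes were chosen with earlier results of these data known, this share is a description only. DUSP6 and DUSP7 are the cytoplasmic phosphatases selective for ERK. DUSP7 (chromosome 3, 52048919 to 52056550, minus strand) was at 359, 353 and 386 CPM in siKMT2C, against 493, 548 and 605 CPM in siNC. The groups were well apart, with a log2 fold change of -0.58 (SE 0.12, 95% interval -0.86 to -0.30, edgeR adjusted p = 0.0641). DUSP6 (chromosome 12, 89347232 to 89353271, minus strand) was at 169, 153 and 172 CPM in siKMT2C, against 225, 228 and 222 CPM in siNC. Its log2 fold change was -0.45 (SE 0.11, edgeR adjusted p = 0.0983), and an unnamed antisense gene at the same place, AC024909.2, had counts equal to 11.1% of those of DUSP6, which may have been mixed with them.

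DUSP1, DUSP2, DUSP4 and DUSP5 are the nuclear, mitogen-inducible phosphatases, and they did not share a direction. DUSP4 (chromosome 8, 29333064 to 29350668, minus strand) was at 129.8, 131 and 145 CPM in siKMT2C, against 172, 192 and 209 CPM in siNC (log2 fold change -0.50, SE 0.13, edgeR adjusted p = 0.103). DUSP1, which acts on p38 and JNK as well as ERK, was at 63.2, 71.4 and 68.5 CPM in siKMT2C, against 93.7, 78.1 and 114 CPM in siNC (log2 fold change -0.49, SE 0.16, edgeR adjusted p = 0.182). Both were lower in every siKMT2C library than in any siNC library. DUSP5, the ERK-selective nuclear phosphatase (chromosome 10, 110497838 to 110511544, plus strand), was at 206, 219 and 176 CPM in siKMT2C, against 133, 135 and 152 CPM in siNC. All siKMT2C libraries were higher, with a log2 fold change of 0.52 (SE 0.13, 95% interval 0.21 to 0.82, edgeR adjusted p = 0.104). DUSP2 was low, at 6.79, 8.48 and 10.4 CPM in siKMT2C and 5.55, 5.88 and 6.64 CPM in siNC (log2 fold change 0.50, SE 0.21, edgeR adjusted p = 0.278), and its groups lay only 0.14 CPM apart at the nearest values.

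**Figure D4:**
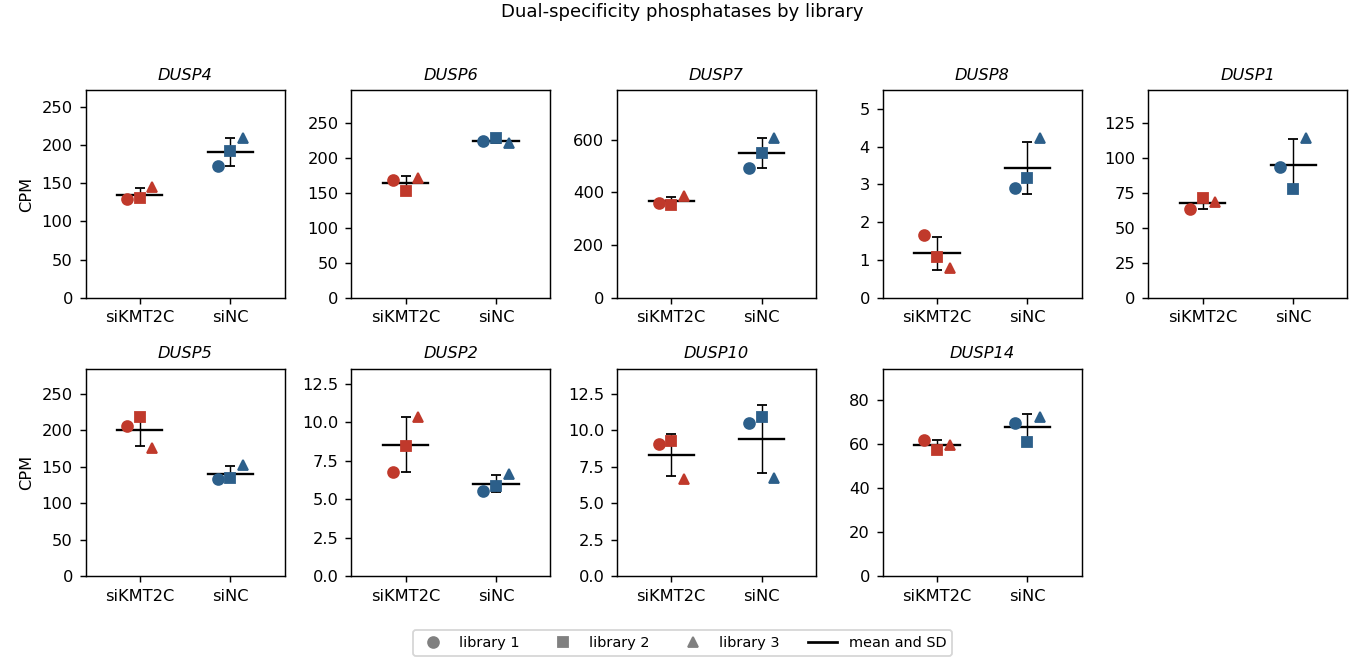
CPM of the 9 DUSPs in each library, siKMT2C at the left and siNC at the right of each panel, with the mean and SD of 3 libraries (y axes start at 0). DUSP4, DUSP6, DUSP7, DUSP8 and DUSP1 lie lower and DUSP5 and DUSP2 higher in every siKMT2C library, while DUSP10 and DUSP14 overlap.

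Counts of DUSP5 over those of DUSP6 gave 1.22, 1.43 and 1.02 in siKMT2C, against 0.592, 0.590 and 0.688 in siNC. DUSP5 over DUSP7 gave 0.575, 0.62 and 0.456 in siKMT2C, against 0.27, 0.246 and 0.252 in siNC. Both ratios describe the opposite directions already given, whose groups did not overlap, and add no separate support. Per kilobase, the mean of DUSP5 (76.7 ± 8.42 CPM per kilobase) stood above that of DUSP7 (64.8 ± 3.10) in siKMT2C. The third siKMT2C library had the reverse order, at 67.3 for DUSP5 and 68.3 for DUSP7. In siNC DUSP7 (97.1 ± 9.98) stood above DUSP5 (53.6 ± 4.14) in every library (SD, n = 3).

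Of the phosphatases selective for JNK and p38, DUSP8 and DUSP10 were low, and DUSP8 showed the largest fold difference of all 35 tested genes. DUSP8 (chromosome 11, 1554044 to 1571920, minus strand) had 27, 17 and 13 counts in siKMT2C, against 51, 46 and 75 counts in siNC. In CPM these are 1.65, 1.09 and 0.799 in siKMT2C and 2.92, 3.18 and 4.22 in siNC, which do not overlap (log2 fold change -1.54, SE 0.33, edgeR adjusted p = 0.0675). DUSP10 was at 9.05, 9.25 and 6.63 CPM in siKMT2C and 10.5, 10.9 and 6.70 CPM in siNC (log2 fold change -0.17, SE 0.24, edgeR adjusted p = 0.776). DUSP14, a small phosphatase without the kinase-binding domain of the others, was at 61.8, 57.6 and 59.6 CPM in siKMT2C and 69.5, 61.2 and 72.6 CPM in siNC and had a log2 fold change of -0.18 (SE 0.13, edgeR adjusted p = 0.519).

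Which DUSPs passed the threshold differed with the setting. Without the third siNC library 4 of the 35 genes passed (4.04% of all tested genes), namely DUSP5 (edgeR adjusted p = 0.0498), DUSP7 (0.043), PHLDA1 (0.0484) and FOSL2. Without the filter on low counts FOSL2 and DUSP8 passed (2 genes, against 1.04% of all genes). After correction for GC content and length 7 passed (8.81% of all tested genes), namely FOSL1, FOSL2, DUSP4 (0.0165), DUSP6 (0.0183), DUSP7 (0.0211), DUSP8 (0.0439) and PHLDA1 (0.032). In the edgeR fits that left out any other single library, none of the 35 genes passed. Of all tested genes 0.129%, 0.123% and 0.22% passed without the first, the second or the third siKMT2C library, and 0.337% and 0.104% without the first or the second siNC library.

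None of the 5 SPRY and SPRED genes had an unadjusted p under 0.05, and their median log2 fold change was 0.04. In 3 of the 5 the groups did not overlap (60.0%, against 24.1% of all tested genes), SPRY1 and SPRY2 being higher and SPRED2 lower in every siKMT2C library. The separation was narrow for SPRY1, at 1.54 CPM in siKMT2C and 1.52 CPM in siNC at the nearest values. Its unscaled counts overlapped. For SPRY2 the nearest values were 18.2 CPM in siKMT2C and 18.0 CPM in siNC. SPRY4, the most abundant of them, was at 199, 193 and 176 CPM in siKMT2C and at 170.2, 195 and 188 CPM in siNC. Its log2 fold change of 0.04 had a 95% interval from -0.24 to 0.31 (edgeR adjusted p = 0.92). SPRY2 was at 18.7, 18.2 and 19.0 CPM in siKMT2C and 18.0, 13.98 and 15.9 CPM in siNC (log2 fold change 0.23, SE 0.15, edgeR adjusted p = 0.512). SPRY1 had 34, 33 and 25 counts in siKMT2C and 18, 18 and 27 in siNC, or 2.08, 2.12 and 1.54 CPM in siKMT2C and 1.03, 1.25 and 1.52 CPM in siNC (log2 fold change 0.59, SE 0.29, edgeR adjusted p = 0.362). SPRED1 and SPRED2, which bring neurofibromin to RAS at the membrane, had log2 fold changes of -0.19 (SE 0.14) and -0.15 (SE 0.11). SPRED2 was at 76.1, 70.8 and 74.8 CPM in siKMT2C and 82.8, 81.3 and 81.6 CPM in siNC, and SPRED1 overlapped between groups.

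Several early factors varied more between libraries of one group than between the groups. IER2 was at 46.0, 49.3 and 92.4 CPM in siKMT2C and at 36.3, 41.7 and 147 CPM in siNC, so that the third library was at 1.94 times the mean of the others in siKMT2C and 3.76 times in siNC. The same ratio was 1.56 and 1.90 for JUNB, 1.5 and 1.71 for IER5 and 1.26 and 1.58 for JUN, in siKMT2C and siNC. The third library was the highest of its group in both groups for 14 of the 35 tested genes (40.0%), against 26.8% of all tested genes. Those 14 genes had a median transcript GC content of 57.0%, against 52.6% over the 35 tested early response genes. For the 4027 tested genes with a transcript sequence and the same library pattern it was 57.2%, against 48.0% over all tested genes. The part of base composition in this pattern was not tested. Leaving out the third siNC library turned the sign of the IER2 log2 fold change, to 0.68, and that of JUNB, to 0.14.

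**Figure D5:**
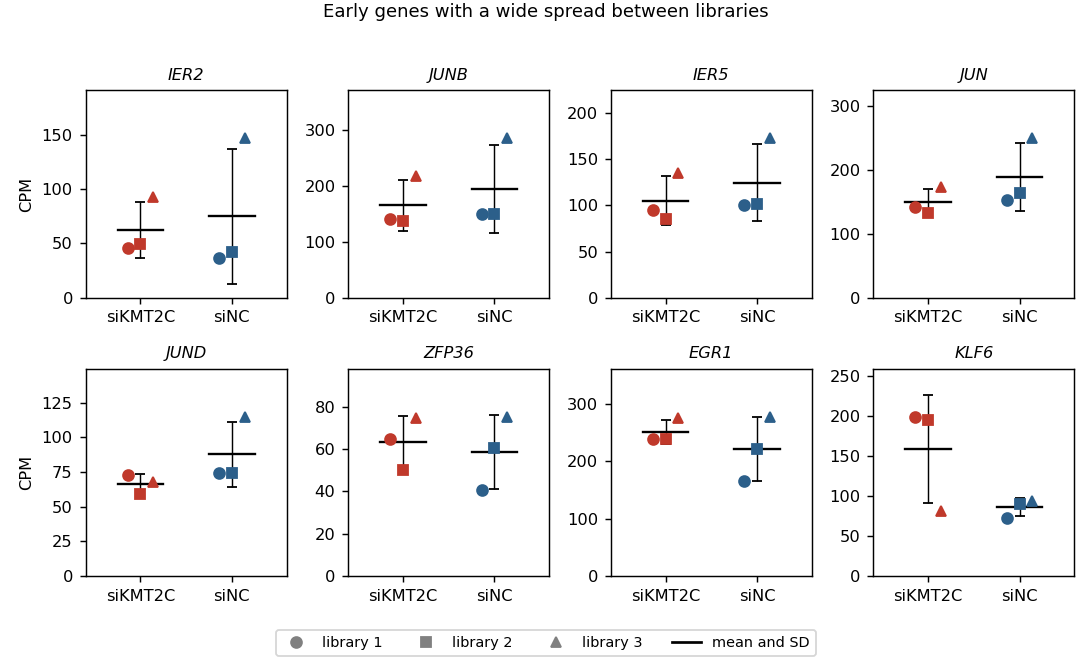
CPM of 8 early factors in each library, siKMT2C at the left and siNC at the right of each panel, with the mean and SD of 3 libraries (y axes start at 0, and triangles mark the third library of each group). IER2, JUNB, IER5 and JUN are highest in the third library of both groups, JUND only in that of siNC, and KLF6 is lowest in the third siKMT2C library.

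Matches to the 7-mer GTATAAA in 3′ untranslated regions (3′ UTRs) stood beside several of these differences. The 7-mer was picked in an earlier scan of these same data, so the counts are descriptions only. In the whole table, the 2125 tested genes with GTATAAA in their longest annotated 3′ UTR (17.2% of 12320) had a median log2 fold change of -0.11, and those without it 0.01. Genes with a match also had longer 3′ UTRs, with a median of 3055 bases against 1160. Among the 8 early response genes lower in siKMT2C at an unadjusted p under 0.05, 4 hold GTATAAA (FOSL2, DUSP6, PHLDA1 and ZFP36L2), against 32.5% of all such tested genes. Of the 4 higher ones (FOSL1, KLF6, DUSP5 and DUSP2) 0 hold it, against 11.8% of all such genes. DUSP4, DUSP7, DUSP8 and DUSP1 are lower without holding it, and EGR3, NR4A2, IER5, SPRY1 and SPRED1 hold it without being separated by the test. In all, 9 of the 35 tested genes hold it (25.7%). The sites are shown for the 4 lower genes, with GTATAAA in capitals and GENCODE 29 transcripts as the source.
FOSL2, first site: gatttgtgctGTATAAActgtataaaa
FOSL2, second site: tgtataaactGTATAAAaggttctgtt
DUSP6, first site: tattacctctGTATAAAattcttcagg
DUSP6, second site: aaaaaaatttGTATAAAactggaagtg
PHLDA1: tgatttgtgaGTATAAAtgcatttgct
ZFP36L2, first site: ttcttagaatGTATAAAggttgtagcc
ZFP36L2, second site: acatactcgaGTATAAAgacatgtagc
The FOSL2 sites start 9 bases apart and share sequence, at bases 4084 and 4093 of a 3′ UTR of 4864 bases. The siRNA sequences were not used here, and the part of these sites in the differences was not tested.

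The rest of the pathway was described by 6 lists of 115 further genes, of which 110 were tested and 4 passed the edgeR test over all genes, all higher in siKMT2C, where 1.5% of all tested genes passed. Leaving out the third siNC library gave 9 calls in these lists, a setting in which 4.04% of all tested genes passed. Leaving out any other single library gave 0 or 1, where 0.104% to 0.337% of all tested genes passed. ELK4, an ETS partner of serum response factor at early promoters, rose to 101 ± 10.4 CPM in siKMT2C, against 56.1 ± 6.07 CPM in siNC (SD, n = 3; log2 fold change 0.85, SE 0.14, edgeR adjusted p = 0.0347). DUSP22, an atypical phosphatase of the JNK pathway, rose to 39.1 ± 1.82 CPM in siKMT2C, against 18.2 ± 0.939 CPM in siNC (SD, n = 3; log2 fold change 1.10, SE 0.13, edgeR adjusted p = 0.0135). The other calls were HBEGF, a ligand of the EGF receptor (log2 fold change 1.03, edgeR adjusted p = 0.0135), and the matricellular early gene CCN2 (log2 fold change 1.07, edgeR adjusted p = 0.0319).

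The kinase cascades held no called gene. In the RAS-ERK list of 27 genes the median log2 fold change was -0.06, and the smallest p-values were those of the phosphatase PTPN11 (0.48, SE 0.11), the adaptor FRS2 (-1.72, SE 0.47) and the scaffold KSR1 (-1.18, SE 0.40), with edgeR adjusted p of 0.0848, 0.123 and 0.19. FRS2 was at 12.7, 11.5 and 10.1 CPM in siKMT2C and 22.5, 70.9 and 19.6 CPM in siNC, so its fold rests largely on the second siNC library. In the JNK and p38 list of 22 genes, MAP2K4, one of the kinases that activate JNK, came nearest to a call, at 30.1, 32.6 and 17.4 CPM in siKMT2C, against 68.4, 62.3 and 47.2 CPM in siNC (log2 fold change -1.15, SE 0.26, edgeR adjusted p = 0.0734). It was followed by MAPK14, which encodes p38α (-0.77, edgeR adjusted p = 0.219), and MAPK12 (0.39, edgeR adjusted p = 0.264). MAPK14 was at 38.5, 40.3 and 37.5 CPM in siKMT2C and 37.1, 77.2 and 84.1 CPM in siNC. Its groups overlapped, the first siNC library lying below every siKMT2C library.

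Of the 16 listed factors that act at early promoters, ETS1 (0.56, SE 0.14) and ATF1 (0.51, SE 0.15) followed ELK4 without being called, with edgeR adjusted p of 0.0917 and 0.145. Among 11 tested bZIP partners and repressors, BACH1 (-0.77, SE 0.17), BACH2 (-0.99, SE 0.25) and BATF2 (-0.57, SE 0.25) had the smallest p-values, with edgeR adjusted p of 0.0731, 0.0964 and 0.301. In the list of other phosphatases, 1 of 12 tested genes was called, DUSP22. In the list of other early response genes, 2 of 23 tested genes were called and 14 of 23 did not overlap between groups (60.9%, against 24.1% of all tested genes).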

How the data were processed

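The authors deposited raw counts per gene for each library, with FPKM values beside them, per the file headers. CASAVA 1.8 and TopHat2 2.0.6 are named in the submitters' processing notes, which also give the mouse build mm10, which the human Ensembl identifiers contradict, so no coordinates were taken from it. The counter, annotation and human build are not given in the sources used here. Symbols, coordinates and transcripts come from GENCODE 29 (GRCh38) and promoters from RefSeq (GRCh38.p14).

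The deposited FPKM values were the counts divided by library totals and by 1 fixed length per gene (largest relative deviation 1.33e-05 over 11429 genes). Tests used the counts. In edgeR 4.0.16 (R 4.3.3), genes were kept by filterByExpr, scaled by TMM and tested by a robust quasi-likelihood F test, with Benjamini-Hochberg adjustment over all 15063 genes. CPM uses TMM-scaled library sizes; an SE is the absolute log2 fold change over the square root of F. Alternatives were RLE scaling, library size alone, other filters, DESeq2 1.42.0, limma-voom 3.58.1, a replicate block, loess correction for GC content and length (span 0.3), and leaving out each library. Leaving out the third library of both groups, and the per-kilobase scale, were chosen after seeing the data. On simulated data for this comparison (14839 genes) the share of planted changes called was 5.97% at 1.5-fold, 43.3% at 2-fold and 84.8% at 4-fold. Of the unchanged genes, 8 were called. Each gene was drawn independently, so a shift shared by many genes of 1 library, such as the third siNC library, was not simulated.

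The 37 genes and the pathway lists were chosen with earlier results of these data known. Values are given for genes with an unadjusted p under 0.05 and, per role, for the 2 with the smallest p and the 2 with the highest level; the level rule was applied per kilobase in place of FPKM. Of each pathway list, called genes and otherwise the 3 with the smallest p are named. Depth was 14409277 to 17539519 counts. Replicate libraries all differed by more than counting error (chi-square over degrees of freedom 17.1 to 74.7).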

Additional observations from a re-analysis of the deposited data

How the results depend on the processing

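Of the 35 tested genes, 28 kept the sign of their log2 fold change in each of the 16 alternative settings in which they were tested (EGR3 in 14), and for 7 (FOS, JUNB, IER2, IER5, ZFP36, ETV4 and SPRY4) it differed in at least 1; 9 were called in at least 1 setting. The number of early response genes called, 0 in edgeR with TMM, was 2 without the filter, 7 with DESeq2, 7 after GC and length correction, 8 with that correction and the replicate block, 6 with the replicate block alone, 0 to 4 when leaving out 1 library, and 5 (of 34 tested) without the third library of both groups. The number over all genes, 226, was 855 with DESeq2, 1323 after GC and length correction, 1368 with that correction and the replicate block, 968 with the replicate block alone, 16 to 620 when leaving out 1 library and 648 without the third library of both groups. For the pathway lists, 4 calls became 15, 14, 17, 12, 0 to 9 and 9 in the same order (DESeq2, GC and length correction, that with the replicate block, the replicate block, 1 library left out, the third library of both left out). KMT2C ranged from -1.51 to -1.36 when leaving out 1 library and was not called without siKMT2C replicate 1 (-1.48), siKMT2C replicate 2 (-1.45) or siNC replicate 2 (-1.42). The median of the DUSPs, -0.45, ranged from -0.48 to -0.38 when leaving out 1 library and was -0.36 without the third library of both groups; that of the other early factors, -0.25, ranged from -0.30 to -0.080, the last without siNC replicate 3. The cause of these changes was not tested. Same-numbered libraries deviated together with correlations of 0.019, 0.107 and 0.389 over genes, and not every library correlated best with its own number, so the numbers were not taken to pair the libraries. Depth limits DUSP8, FOSB, SPRY1, NR4A2 and EGR3, which had under 100 counts in every library.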
